A study of Mus musculus with 10 samples.

Results

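The neuromuscular junction genes examined were 10 of the 39179 genes listed for each library. The set, named by its place in the junction, has 5 subunits of the muscle acetylcholine receptor (Chrna1, Chrnb1, Chrnd, Chrne and Chrng), and Musk, Lrp4, Dok7, Rapsn and Ncam1, which build or mark the synapse. Of the 10, 9 passed the filter on low counts and Chrng did not. Gene counts came from the tibialis anterior, a fast muscle of the lower leg, in 10 mice with 1 library each. The 4 Control mice had PBS, a buffer, injected under the skin of each flank, and the 6 LLC mice had Lewis Lung Carcinoma cells, a mouse lung cancer line that causes cachexia, injected in the same way. Both groups were of 1 strain with no engineered allele named, but the sources differ on what that strain was. The sample labels give C57BL/6J mice of 10 weeks, with 0 days of tumor development in Control and 23 days in LLC, and the series description gives C57BL/10 males of 8 weeks studied on day 22. By the study's methods, the 6 LLC mice were among those that lived to the end of the experiment. The comparison asked how the junction genes differed between wasting and Control muscle, and how those differences sit beside the response of muscle to the loss of its nerve.

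In the adult junction, acetylcholine released by the motor nerve opens a receptor of α, β, δ and ε subunits (Chrna1, Chrnb1, Chrnd and Chrne). The fetal receptor carries γ (Chrng) in place of ε. Agrin from the nerve binds Lrp4, which activates the receptor kinase MuSK (Musk). With its adaptor Dok7, MuSK signals for the scaffold protein rapsyn (Rapsn) to gather the receptors under the nerve ending. When the nerve is lost, nuclei along the whole fibre switch on Chrna1, Chrnb1, Chrnd, Chrng, Musk and the adhesion molecule Ncam1. Myogenin (Myog), a transcription factor that binds E-boxes in the promoters of several of these genes, drives much of that response, whereas Chrne depends on the N-box, bound by the factor GABP (Gabpa).

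Upstream sequences are shown for the receptor subunit gene with the smallest unadjusted p (Chrna1), for the kinase gene (Musk) and for the adult subunit gene (Chrne), because these carry the E-boxes and the N-box named above. Sequences are the 250 bases before the annotated start, 5′ to 3′ on the gene's strand, from RefSeq on GRCm38.p6, for which 6 of the 10 members had an entry. Capitals mark the E-box, searched as CANNTG, which reads the same on both strands, and the N-box, searched as CCGGAA on both strands. The spans are chr2:73580339-73580588 (minus strand) for Chrna1, chr4:58285712-58285961 (plus strand) for Musk and chr11:70619195-70619444 (minus strand) for Chrne.
Chrna1: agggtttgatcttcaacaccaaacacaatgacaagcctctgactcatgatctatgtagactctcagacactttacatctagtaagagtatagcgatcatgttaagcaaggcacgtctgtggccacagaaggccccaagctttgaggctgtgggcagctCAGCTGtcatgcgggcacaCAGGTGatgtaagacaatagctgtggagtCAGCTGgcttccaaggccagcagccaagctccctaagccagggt
Musk: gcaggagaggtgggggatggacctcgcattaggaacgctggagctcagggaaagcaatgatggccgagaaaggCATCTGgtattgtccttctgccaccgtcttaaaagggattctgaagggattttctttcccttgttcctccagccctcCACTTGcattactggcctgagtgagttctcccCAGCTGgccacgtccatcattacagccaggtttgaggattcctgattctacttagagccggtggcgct
Chrne: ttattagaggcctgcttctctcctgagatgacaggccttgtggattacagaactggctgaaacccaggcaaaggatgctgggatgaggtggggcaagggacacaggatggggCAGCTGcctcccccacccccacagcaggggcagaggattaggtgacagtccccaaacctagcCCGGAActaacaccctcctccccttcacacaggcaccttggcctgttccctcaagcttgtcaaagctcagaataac
Chrna1 held 3 E-boxes, beginning 92, 73 and 44 bases before the start. Musk also held 3, beginning 177, 100 and 68 bases before the start. Chrne held 1 E-box at 138 bases and 1 N-box at 76 bases before the start. The other members with an entry held E-boxes too and no N-box. Chrnb1 and Chrng held 3 E-boxes each, and Dok7 held 1 before 1 annotated start and 0 before another. The E-box letters are common: 66.22% of 32851 promoter windows of the same length held at least 1, and 12.03% held the N-box. These matches are letters in a window and were not tested as binding sites.

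Total counts ranged from 16693209 to 21303084 per library, and 3 counts were equal to 0.148 to 0.174 CPM. CPM values here are counts per library size after TMM scaling. Fast-fibre markers such as Ckm, Acta1 and Myh4 were abundant in all libraries, with a summed level of 126980 to 135710 CPM in Control and 88517 to 144402 CPM in LLC. Library LLC 1 stood apart: a chi-square statistic over genes, per degree of freedom, was 121 to 197 between it and the other LLC libraries, against 8.52 to 61.4 among those others and 3.93 to 8.73 between Control libraries. LLC 5 was the next farthest, at 28.0 to 61.4 from LLC 2, 3, 4 and 6. Values are therefore also given without LLC 1, and without LLC 1 and LLC 5, the latter chosen after seeing the data. Markers of other cells moved as well. Schwann cell markers, the glia of motor axons, summed to 45.7 to 52.0 CPM in Control and 24.6 to 33.8 in LLC, with 7 of 7 tested markers below 0 and 4 past the threshold. Axon markers summed to 1.53 to 2.81 CPM and 0.671 to 1.52, nearly all of it from Stmn2 (1.48 to 2.75 and 0.615 to 1.47). Stmn2 was the only 1 of the 7 tested, at -0.86 on the log2 scale and past the threshold. Nefm, Nefh, Snap25 and Tubb3 did not pass the filter on low counts, and Nefl and Chat were at 0 in all libraries. The axon sum therefore reflects Stmn2 and is no measure of axons. The satellite cell sum, mostly Cdh15 and Sdc4, overlapped between the groups (36.7 to 45.4 and 34.3 to 59.1 CPM). Pax7 and Myf5, with Control means of 2.39 and 1.12 CPM, fell by 1.01 and 0.94 on the log2 scale, both past the threshold. Cdh15, Sdc4 and Chrdl2 were above 0 and did not pass. Fibroblast markers summed to 177 to 220 CPM and 45.7 to 68.8, with 6 of 6 past the threshold. Neutrophil markers summed to 0.636 to 1.83 CPM in Control and 30.6 to 65.0 in LLC, with 5 of 5 tested past it. The mitochondrial share of counts was 28.4% to 30.7% in Control and 22.0% to 27.9% in LLC. Their part in the results below was not tested, and in bulk muscle fewer cells of a type and less RNA per cell cannot be told apart.

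None of the 9 tested members passed the threshold, set at an adjusted p (Benjamini-Hochberg) no higher than 0.05 in edgeR's quasi-likelihood test together with at least 1.5-fold. Across all genes 715 of 12690 passed it, or 5.63%, with 1.65% higher in LLC and 3.99% lower. At an unadjusted p of 0.05 or less there were 4 members, Chrna1, Chrnb1, Musk and Dok7, beside 27.4% of all genes, and DESeq2 and limma voom each put 1 member, Musk, past the threshold. Fold changes were above 0 in 6 members and below 0 in 3, with a median log2 value of 0.19 against 0.0019 over all genes. The coefficient of variation was higher in LLC than in Control for all tested members except Chrna1 and Chrnd. The 4 highest in LLC were those of Musk, Lrp4, Chrne and Chrnb1, at 61.3%, 53.4%, 39.6% and 34.0%, against 25.0%, 3.08%, 5.13% and 7.65% in Control.

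**Figure D1:**
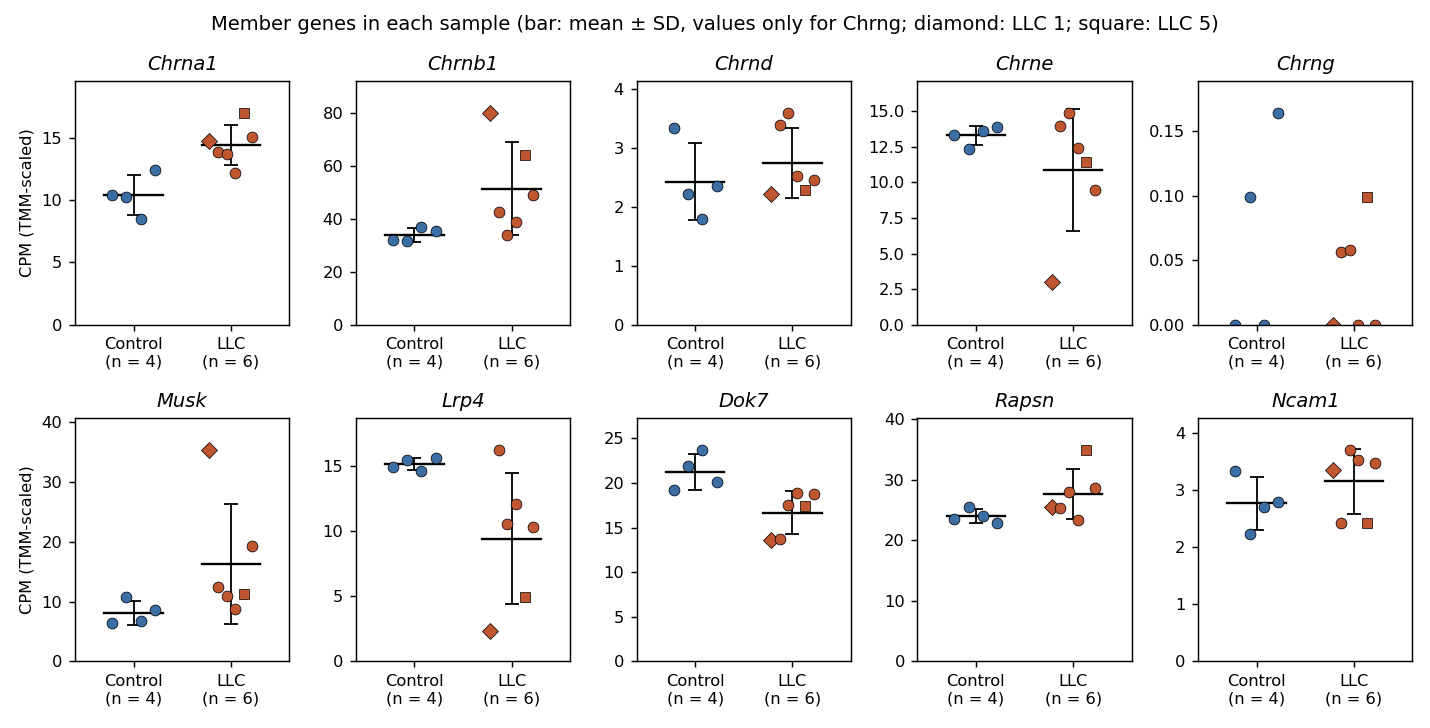
TMM-scaled CPM (y axis, linear from 0) of the 10 members in each of the 4 Control and 6 LLC libraries, 1 point per library, with mean and SD except for Chrng. Only Dok7 shows no overlap between the groups, and LLC 1 (diamond) is the highest point for Chrnb1 and Musk and the lowest for Chrne, Lrp4 and Dok7.

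Among the receptor subunits, Chrna1 (ENSMUSG00000027107, chr2:73563215-73580338, minus strand), the α subunit that carries most of the acetylcholine binding site, had the most uniform difference. Its level was 10.4, 10.3, 8.49 and 12.4 CPM in Control 1 to 4, and the LLC libraries ran from 12.1 through a median of 14.3 to 17.0. The groups overlapped only in that Control 4 lay just above the lowest LLC library, LLC 4. Means were 10.4 ± 1.59 CPM (SD, n = 4) and 14.4 ± 1.62 CPM (SD, n = 6), which is 0.47 ± 0.12 (SE) on the log2 scale with an adjusted p of 0.0420 by edgeR's quasi-likelihood test. The adjusted p was within the limit and the size of the difference was under 1.5-fold. Without LLC 1 the log2 fold change was 0.47 with an adjusted p of 0.0268, and without LLC 1 and LLC 5 it was 0.39 with 0.0291. The adjusted p was above 0.05 when Control 1, 2 or 3 (0.114, 0.111 and 0.140) or LLC 2, 3, 5 or 6 (0.0519, 0.0564, 0.0755 and 0.0881) was left out alone.

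Chrnb1 (ENSMUSG00000041189, chr11:69784036-69795943, minus strand) encodes the β subunit. Control levels were 31.9, 31.8, 36.9 and 35.6 CPM. In LLC they ran from 34.0 through a median of 45.9 to 80.2, the top values being 80.2 in LLC 1 and 64.1 in LLC 5. One library, LLC 3, lay within the Control range. On the log2 scale LLC was at 0.60 ± 0.22 against Control (SE, adjusted p = 0.112 by edgeR), at 0.44 without LLC 1 and at 0.27 without both LLC 1 and LLC 5.

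Chrnd (ENSMUSG00000026251, chr1:87190607-87200070, plus strand), the δ subunit and a gene that denervated muscle induces, had 3.34, 2.22, 1.78 and 2.36 CPM in Control and 2.21 to 3.59 in LLC, with a median of 2.49. The groups overlapped almost fully. Its log2 fold change was 0.17 ± 0.21 (SE, adjusted p = 0.601 by edgeR), and the 95% interval of -0.28 to 0.62 leaves room for changes either way.

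The adult subunit gene Chrne (ENSMUSG00000014609, chr11:70614883-70619216, minus strand), transcribed only by the nuclei under the nerve ending in innervated muscle, was tight in Control at 13.3, 12.3, 13.6 and 13.9 CPM. LLC libraries ran from 2.98 through a median of 11.9 to 14.9. The lowest value was that of LLC 1, and the next was 9.45 in LLC 6. Its log2 fold change was -0.30 ± 0.31 (SE, adjusted p = 0.546 by edgeR) and -0.09 ± 0.12 without LLC 1.

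Chrng (ENSMUSG00000026253, chr1:87204657-87212694, plus strand), the fetal subunit gene, was at the limit of detection in both groups. It had 0, 2, 0 and 3 reads in Control 1 to 4 and 0, 1, 1, 0, 2 and 0 in LLC 1 to 6. Thus 2 of 4 Control and 3 of 6 LLC libraries had no read, and none exceeded the 3 counts taken as the floor. The 5 reads in Control and 4 in LLC gave no detectable difference in CPM (exact permutation test, two-sided, p = 0.524), and no fold is given. Per kilobase of exonic length, Chrng was at most 0.479% of Chrne in a Control library and 0.351% in an LLC library. These ratios depend on exonic lengths of 4163 and 1690 bases, each joined over all annotated transcripts. In LLC 1, where Chrne was low, 3 reads of Chrng would have been 2.10% of Chrne, so a level below that was not detectable there.

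Of the genes that gather the receptor, Musk (ENSMUSG00000057280, chr4:58285960-58374303, plus strand), the receptor kinase at the centre of the pathway, had the largest fold change of the 9. It had 6.41, 10.8, 6.71 and 8.55 CPM in Control. LLC ran from 8.77 through a median of 11.8 to 35.4, with 35.4 in LLC 1 and 19.3 in LLC 6. The other 4 LLC libraries lay between 8.77 and 12.5, around the highest Control value of 10.8. The log2 fold change was 1.01 ± 0.37 (SE) with an adjusted p of 0.117 by edgeR, and the 95% interval was 0.19 to 1.82. Without LLC 1 it was 0.63 ± 0.22 with an adjusted p of 0.0776. Musk passed the threshold by both other tests run, in which DESeq2 gave 1.02 with an adjusted p of 0.0461, and limma voom with sample weights gave 0.65 with 0.0430.

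Lrp4 (ENSMUSG00000027253, chr2:91457511-91513779, plus strand), the agrin receptor that activates MuSK, had the steadiest Control level of the members, at 14.9, 15.5, 14.6 and 15.6 CPM. In LLC it ran from 2.31 through a median of 10.4 to 16.3. The lowest libraries were LLC 1 at 2.31 and LLC 5 at 4.96, 3 others lay between 10.3 and 12.1, and LLC 2 at 16.3 exceeded all Control libraries. The log2 fold change was -0.69 ± 0.38 (SE, adjusted p = 0.251 by edgeR), with -0.48 ± 0.23 without LLC 1 and -0.30 ± 0.12 without LLC 1 and LLC 5.

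Dok7 (ENSMUSG00000044716, chr5:35056766-35087839, plus strand), the adaptor that MuSK needs, was the only member without overlap between the groups. Control levels were 19.2, 21.9, 23.7 and 20.05 CPM, and LLC levels ran from 13.6 through 17.5 to 18.9, all below the lowest Control library. Of all genes tested, 9.57% lay wholly lower in LLC and 6.4% wholly higher. Its log2 fold change was -0.35 ± 0.12 (SE, adjusted p = 0.0979 by edgeR) and -0.29 ± 0.10 without LLC 1, both under 1.5-fold.

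Rapsn (ENSMUSG00000002104, chr2:91035620-91045729, plus strand), whose protein anchors the receptors, had 23.5, 25.5, 24.1 and 22.8 CPM in Control and 23.3 to 35.0 in LLC, with a median of 26.7. The highest library was LLC 5, and LLC 1 at 25.5 was level with Control. Its log2 fold change was 0.20 ± 0.11 (SE, adjusted p = 0.253 by edgeR). The gene has an antisense neighbour, Gm13778. The default HTSeq settings named in the methods count by strand, but that description names another annotation than the identifiers in the counts. Whether reads of Gm13778 were kept apart from those of Rapsn was not tested.

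Ncam1 (ENSMUSG00000039542, chr9:49502136-49798925, minus strand), an adhesion molecule of the synapse, satellite cells and nerve that spreads over denervated fibres, had 3.34, 2.22, 2.70 and 2.79 CPM in Control. LLC ran from 2.43 through 3.40 to 3.71, within or just above that range. With all libraries the log2 fold change was 0.19 ± 0.17 (SE, adjusted p = 0.482 by edgeR), with a 95% interval of -0.19 to 0.56. It has an antisense neighbour too, Gm11149.

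**Figure D2:**
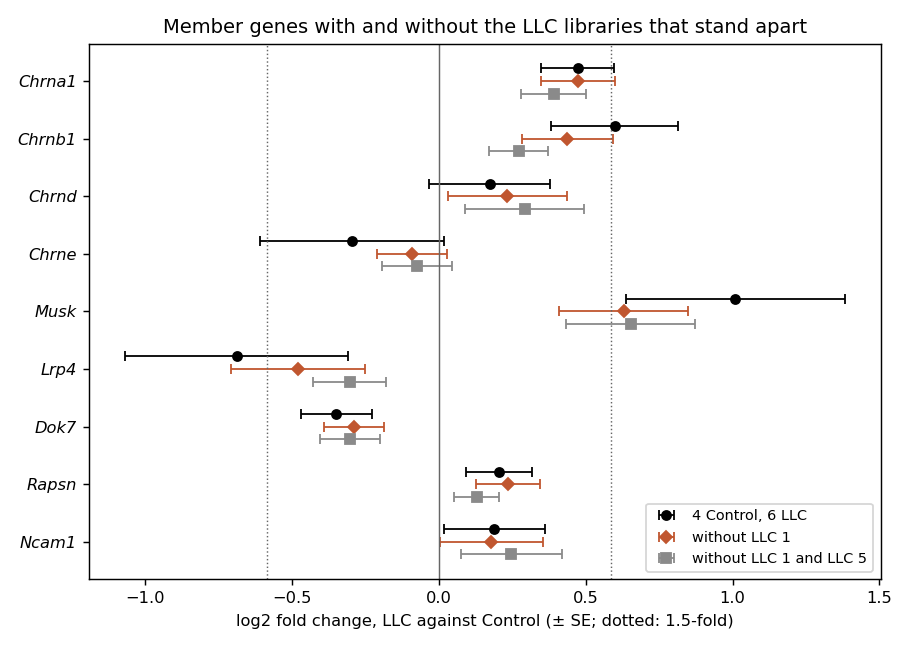
Log2 fold change of LLC against Control (x axis, ± SE) of the 9 tested members with all 10 libraries, without LLC 1, and without LLC 1 and LLC 5; dotted lines mark 1.5-fold. Directions hold in all 3 fits for the 9 genes, while Musk goes from 1.01 to 0.63 and Chrne from -0.30 to -0.09 without LLC 1.

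Per kilobase of exonic length, which allows genes to be set against each other, the Control order was Chrnb1 (13.5 ± 1.03 CPM per kb, SD, n = 4), Rapsn (13.3 ± 0.644), Chrne (7.87 ± 0.404), Dok7 (4.97 ± 0.472), Chrna1 (2.37 ± 0.363), Musk (2.15 ± 0.538), Lrp4 (1.44 ± 0.0445), Chrnd (0.737 ± 0.199), Ncam1 (0.319 ± 0.0527) and Chrng (at or under 0.0395 in each library). Control ranges overlapped between Chrnb1 and Rapsn and between Chrna1 and Musk, and no other neighbours in that order overlapped. Exonic length joins the exons of all annotated transcripts of a gene. It can exceed the length of the expressed transcript, by amounts that may differ between genes, and the order depends on it. In LLC the order of the means was Chrnb1 (20.4 ± 6.91 CPM per kb, SD, n = 6), Rapsn (15.3 ± 2.28), Chrne (6.42 ± 2.55), Musk (4.33 ± 2.65), Dok7 (3.90 ± 0.560), Chrna1 (3.29 ± 0.370), Lrp4 (0.897 ± 0.479), Chrnd (0.834 ± 0.181) and Ncam1 (0.364 ± 0.0659). Musk thus stood above Dok7 and Chrna1 by its mean, but its LLC range of 2.32 to 9.38 covered the ranges of both. In LLC 1, Musk at 9.38 exceeded Chrne at 1.76 CPM per kb, while in all 4 Control libraries Chrne was the higher.

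**Figure D3:**
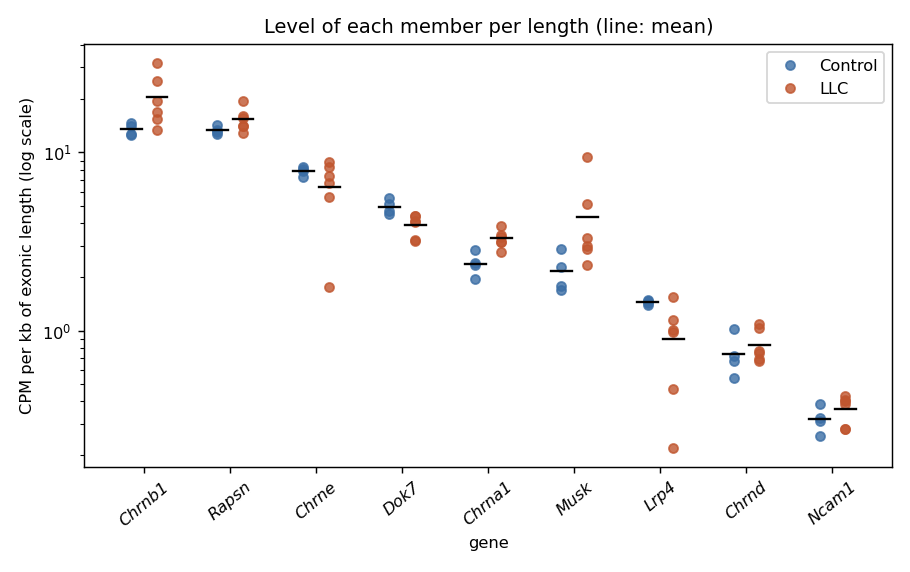
CPM per kilobase of exonic length (y axis, log scale) of the 9 tested members, ordered by the Control mean, with 1 point per library and a line at each group's mean. Chrnb1 and Rapsn are highest at 13.5 and 13.3 in Control, Ncam1 is lowest at 0.319, and the wide LLC spreads are those of Chrne, Musk and Lrp4.

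Within groups the members did not move as a block. After each group's mean was removed, log2 CPM of Chrne and Lrp4 ran together over the 10 libraries (Pearson r = 0.86), and both ran against Chrnb1 (r = -0.80 and -0.88) and Musk (r = -0.88 and -0.66). These coefficients describe libraries that include LLC 1, share their scaling, and have no p. Counted from the highest r with Musk, Chrne ranked 12460 and Lrp4 10289 of 12689 genes. Many genes thus ran against Musk at least as strongly as Lrp4 did. Among the tested genes most like Musk by the same measure were Rprd2 (r = 0.97), Zfc3h1 (0.95), Eps15 (0.95) and Phip (0.95), and their r without LLC 1 was 0.93, 0.85, 0.84 and 0.85 over 9 libraries. The genes most like Chrna1 were Gm6563 (r = 0.92), Pold3 (0.91), Suv39h1 (0.89), Oaz1-ps (0.89) and Gm9144 (0.89). Rapsn was the member most like Chrna1, with r = 0.50 and rank 740 of 12689 genes.

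Other genes of the junction, 41 by name of which 38 were tested, leaned lower in LLC: 12 had a fold change above 0 and 26 below, with a median log2 value of -0.13 against 0.0019 for all genes. Past the threshold were 1 higher, Wnt4, and 3 lower, Nid2, Hspg2 and Nes, or 10.5% against 5.63% of all genes. Wnt4, a secreted ligand that can act through MuSK, had 19.3, 15.7, 14.2 and 12.7 CPM in Control and ran from 24.4 through 31.5 to 35.3 in LLC. The groups did not overlap, and the log2 fold change was 0.97 ± 0.15 (SE, adjusted p = 0.00294 by edgeR). In the group of 11 tested nerve signals and kinases, no other gene passed. Agrn, which encodes agrin, was at 15.8 ± 1.37 CPM (SD, n = 4) and 14.1 ± 1.71 (SD, n = 6), with a log2 fold change of -0.16 and an adjusted p of 0.355 by edgeR. Erbb3, a neuregulin receptor of Schwann cells and fibres, was at 4.68 ± 0.428 and 3.74 ± 0.325 CPM. Its groups did not overlap, and the log2 fold change was -0.33 with an adjusted p of 0.105. Neuregulin (Nrg1) and Erbb4 did not pass the filter on low counts.

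The 9 tested genes of the synaptic matrix and cholinesterase leaned lower in LLC, with 8 below 0 and a median log2 value of -0.42. Nid2, a basal lamina linker enriched at the synapse, had 5.67, 6.02, 4.43 and 6.68 CPM in Control and 1.24 to 2.32 in LLC, with a median of 1.64. It fell by 1.74 ± 0.19 on the log2 scale (SE, adjusted p = 0.000414 by edgeR). Hspg2, which encodes perlecan, the anchor of acetylcholinesterase, fell by 0.60 ± 0.16 (adjusted p = 0.0471), and without LLC 1 it was at -0.49, under 1.5-fold. Hspg2 also missed the threshold without any 1 of the Control libraries or of LLC 3, 5 or 6. Both are also products of fibroblasts or vessels, and the fibroblast marker sum was lower in LLC by the ranges given above. Endothelial markers summed to 245 to 317 CPM in Control and 238 to 264 in LLC. Of these 6 genes 4 were below 0 and Kdr was past the threshold at -1.13, while Pecam1 and Cldn5 were at 0.31 and 0.78. The part of these cells in the values was not tested. Ache, the enzyme that ends transmission by cleaving acetylcholine, had 39.6, 34.5, 34.7 and 42.3 CPM in Control and ran from 5.30 in LLC 1 through 26.0 to 30.6. The groups did not overlap, and the log2 fold change of -0.78 ± 0.34 missed the threshold (adjusted p = 0.172 by edgeR). Without LLC 1 it was -0.57 ± 0.14 with an adjusted p of 0.0204, under 1.5-fold. Colq, the collagen tail that tethers the enzyme, was at 6.23 ± 0.690 and 6.60 ± 1.80 CPM, with a log2 fold change of 0.08.

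Among the 14 scaffold genes of the postsynaptic side, 10 were below 0 and 1 passed. Nes, the intermediate filament nestin found under the synapse and in vessels and satellite cells, had 41.4, 34.7, 35.7 and 52.3 CPM in Control and 17.8 to 33.5 in LLC. It fell by 0.69 ± 0.18 on the log2 scale (adjusted p = 0.0408 by edgeR), a call lost without any 1 of the Control libraries or of LLC 2, 3, 5 or 6. Utrn, the dystrophin relative concentrated at the receptors, had a log2 fold change of -0.20 and an adjusted p of 0.322. None of the 4 regulators of synaptic transcription passed. Gabpa, which encodes the N-box factor, had a log2 fold change of 0.08 ± 0.13, and Etv5, a partner in the same nuclei, had -0.30 ± 0.16 with adjusted p of 0.720 and 0.231 by edgeR.

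Genes outside the junction that respond to denervation were described beside the members, from a list of 20 of which 18 were tested. Of the 16 tested that are known to go up after nerve loss, 13 were above 0 in LLC, with a median log2 value of 0.93, and 2 passed the threshold, Myog and Fbxo32. The 2 known to go down, Dach2 and Hdac9, were at -0.36 and -0.59 and did not pass. Over the 18 genes 11.1% passed, all higher, against 5.63% of all genes, or 1.65% counting only those higher. Above 0 were 50.3% of all genes. Without LLC 1 the median of the 16 was 0.54 and 6 passed, all higher, or 33.3% of the 18. In that fit 7.65% of all genes passed, and 288 of 12624 passed as higher. The list was chosen with earlier results of these data known, so these shares describe it and test nothing. Leaving out any 1 library gave 1 to 6 genes past it, with 1 where LLC 5 or any of the Control libraries was missing. As background, Fbxo32, Trim63, Cdkn1a and Gadd45a also respond to forms of wasting in which the nerve is intact.

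Myog, the transcription factor myogenin, had 1.11, 1.38, 1.84 and 2.03 CPM in Control and ran from 2.97 through 3.51 to 4.63 in LLC. The groups did not overlap, and neither LLC 1 nor LLC 5 was the highest. Its log2 fold change was 1.19 ± 0.19 (SE, adjusted p = 0.00336 by edgeR), 1.18 without LLC 1 and 1.16 without LLC 1 and LLC 5. Myod1, its relative that also binds E-boxes, was at 23.6 ± 6.29 CPM (SD, n = 4) and 19.2 ± 6.91 (SD, n = 6), a log2 fold change of -0.30 with an adjusted p of 0.555. Hdac4, a deacetylase that links nerve loss to Myog through Dach2, was at 0.55 ± 0.20 (adjusted p = 0.113), and Dach2, the repressor of Myog, at -0.36 ± 0.30 (adjusted p = 0.445).

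Fbxo32 and Trim63 encode atrogin-1 and MuRF1, the ubiquitin ligases that rise in most forms of muscle atrophy. Fbxo32 had 376, 269, 367 and 385 CPM in Control and ran from 517 through 933 to 3630 in LLC, with no overlap and a log2 fold change of 2.03 ± 0.49 (adjusted p = 0.0307 by edgeR). The call was lost without LLC 5 or any 1 of the Control libraries, and without LLC 1 the value was 1.51 with an adjusted p of 0.00545. Trim63 ran from 157 to 195 CPM in Control and from 211 through 370 to 2529 in LLC, again without overlap. Its log2 fold change of 2.19 ± 0.66 missed the threshold (adjusted p = 0.0718) and was 1.46 ± 0.41 with an adjusted p of 0.0338 without LLC 1. Gadd45a, a stress gene induced through Hdac4 after denervation, ran from 6.90 to 8.20 CPM in Control and from 13.2 through 17.3 to 135 in LLC. It had 2.40 ± 0.69 (adjusted p = 0.0607), and 1.52 ± 0.35 with an adjusted p of 0.0157 without LLC 1. The cell-cycle inhibitor gene Cdkn1a had 2.71 ± 0.84 (adjusted p = 0.0758) and 1.47 with 0.0174 without LLC 1. Runx1, which guards denervated fibres against wasting, had 2.32 ± 0.79 (adjusted p = 0.0981) and 1.20 with 0.0231 without LLC 1. In LLC 1 these 5 genes were at 3630, 2529, 135, 246 and 19.95 CPM, each the highest of the 6 LLC libraries.

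Other genes that denervated muscle induces had smaller or opposite values. The embryonic myosin gene Myh3 had 1.48, 1.58, 0.81 and 1.42 CPM in Control and 1.19 to 1.61 in LLC, with a log2 fold change of 0.08 and a 95% interval of -0.36 to 0.51. Kcnn3, a potassium channel gene named here after its values were seen, was at -0.81 with a 95% interval of -1.54 to -0.08 (adjusted p = 0.148 by edgeR), and Tnfrsf12a, named likewise, was at -0.01 with -0.88 to 0.86. Set side by side, Myog at 1.19 had an adjusted p under 0.05 in each fit that left out 1 library. Chrna1 at 0.47 had one in edgeR's fit of all 10 libraries but not in the 7 fits given above. With all 10 kept, edgeR also gave Chrna1 0.0538 with no filter and 0.0513 with at least 10 counts in each sample. By edgeR it had 0.0398 with median-of-ratios scaling, 0.0489 with upper-quartile scaling and 0.0421 without mitochondrial genes. DESeq2 gave Chrna1 0.00926 and limma voom with sample weights 0.0129, both under 1.5-fold. The replicate block gave Chrna1 0.300, and Myog 0.131. Chrnb1 at 0.60 and Musk at 1.01 had none in edgeR's fit of all 10 libraries. Chrnd at 0.17, Ncam1 at 0.19 and Myh3 at 0.08 had intervals that include 0. Chrng was at or under the floor in both groups. Of junction and denervation genes named outside the members, Ache, Nid2, Nrg1, Gabpa, Hdac4, Runx1, Gadd45a, Cdkn1a, Ampd3 and Fbxo32 have an antisense neighbour. Colq overlaps Gm49387 and Ampd3 overlaps Gm47282 on the same strand. In these genes the counting could share or drop reads. No denervated muscle was among the samples, so likeness to denervation was described gene by gene and was not tested.

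**Figure D4:**
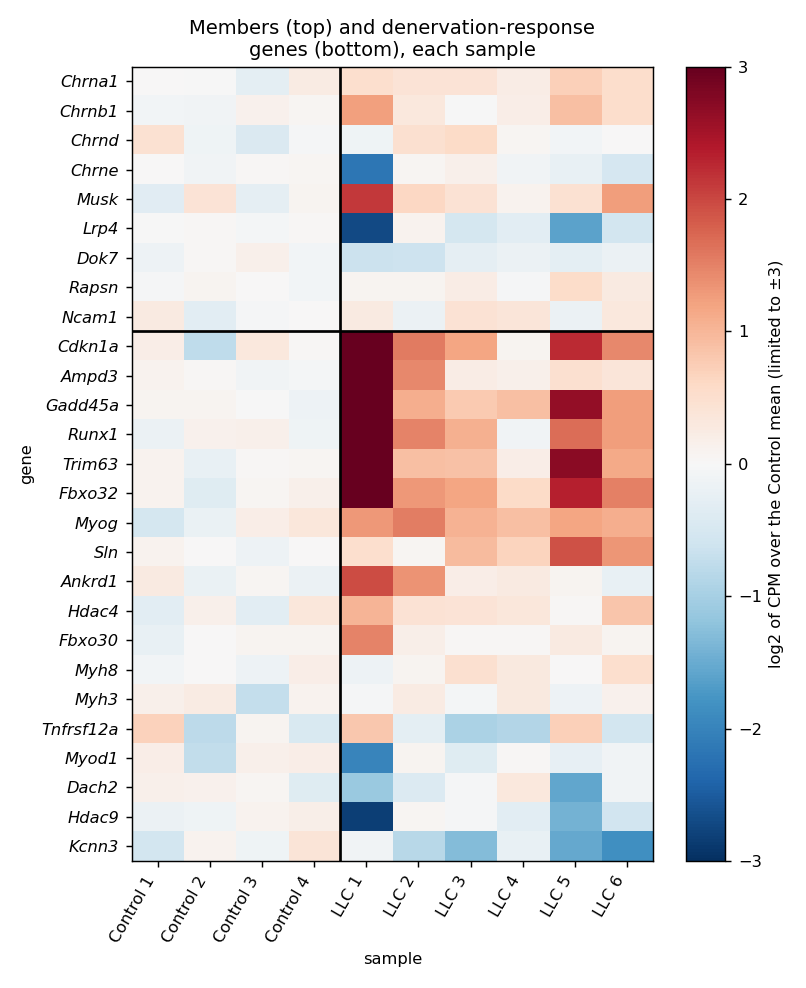
Log2 of CPM over the Control mean (color, limited to ±3) of the 9 tested members (top) and 18 tested denervation-response genes (bottom) in each of the 10 libraries, the lower block ordered by fold change. LLC 1 and LLC 5 are deepest in color for Fbxo32, Trim63 and Gadd45a, and for Lrp4 in the other direction, while Myog is of like depth in the 6 LLC libraries and Chrnd and Ncam1 are pale throughout.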

How the data were processed

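RNA of 4 Control and 6 LLC tibialis anterior muscles was sequenced as stranded total RNA libraries in 1 lane. The authors mapped reads to mm10 with TopHat and counted them per gene with HTSeq, and the deposited values are raw counts, 1 library per mouse. The methods name RefSeq genes and HTSeq's default settings, which count by strand. The deposited counts carry Ensembl identifiers instead, so whether that description, strand setting included, holds for them was not tested, and their annotation release is not given in the sources used here. Of 39179 identifiers, 37693 were matched to GENCODE M21 (GRCm38), which supplied symbols, coordinates and exonic lengths.

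Genes were kept by edgeR's filterByExpr (minimum count 10), scaled by TMM and tested by edgeR's quasi-likelihood test, two-sided, with group as the only term and Benjamini-Hochberg adjustment over 12690 genes (edgeR 4.0.16, limma 3.58.1, DESeq2 1.42.0, R 4.3.3). Standard errors come from the F statistic, log2 CPM used a prior count of 2, and the 95% intervals use the fit's degrees of freedom. The tests were checked on simulated data. Floors cover counting error only, because reads without molecular identifiers are not independent molecules. Chrng, which the filter removed, was compared by an exact permutation test of its CPM.

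The members and gene lists were chosen with earlier results of these data known. Named with values were the 10 members, each gene of the other junction and denervation lists past the threshold, and 18 further genes fixed by name, together with the genes most like Chrna1 and Musk. A few of the genes this rule names are not reported here. Alternatives covered scaling, filters, tests, thresholds, a replicate block and each sample left out. Replicate numbers belong to different mice in each group, so p-values measure the spread between these mice.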

Additional observations from a re-analysis of the deposited data

Results flagged for a closer look

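Over 30 named genes, 60 groups of 4 or 6 libraries were screened for a library far from the others of its group by Dixon's ratio of its gap to the whole range, and 7 exceeded the 95% critical value. Chance flags about 1 in 20 groups. None of the 7 was in a member. LLC 1 was the highest LLC library for Cdkn1a (246 CPM, ratio 0.852), Runx1 (19.95 CPM, 0.870) and Gadd45a (135 CPM, 0.717), and the lowest for Myod1 (6.02 CPM, 0.664). Control 2 was the lowest Control library for Myod1 (14.2 CPM, ratio 0.964), Fbxo32 (269 CPM, 0.839) and Hspg2 (161 CPM, 0.856).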

How the results depend on the processing

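The 9 tested members kept their direction under all 21 alternatives, though those that change only the threshold reuse the main fit and could not differ. None passed the threshold with any library left out (0 to 0), but DESeq2 called 1 (Musk), limma voom with sample weights 1 (Musk), the adjusted p without a minimum fold 1 (Chrna1) and the unadjusted p with 1.5-fold 2 (Chrnb1 and Musk). The log2 fold change of Musk ranged from 0.63 to 1.18 with adjusted p from 0.0430 to 0.367, that of Chrna1 from 0.39 to 0.57 with 0.00926 to 0.300, that of Lrp4 from -0.91 to -0.30 and that of Chrne from -0.43 to -0.08. Over all genes, 475 passed with at least 10 counts in each sample, 1572 by the unadjusted p, and 415 to 966 with 1 library left out (fewest without Control 3, most without LLC 1). DESeq2 called 1052 and limma voom 997. Of other junction genes, 2 passed by limma voom, 2 without LLC 1 and LLC 5, and 2 to 4 with 1 library left out. Hspg2 missed the threshold in 13 alternatives and Nes in 11. Of denervation-response genes, 4 passed with no filter and 6 by DESeq2, all higher. By limma voom 7 passed, 6 higher and 1 lower. By the unadjusted p 9 passed, 8 higher and 1 lower, which was Kcnn3. Without LLC 1 and LLC 5 there were 6. With 1 library left out, 1 to 6 passed (6 without LLC 1, 5 without LLC 4, 1 without LLC 5 or any Control). Myh3 turned to -0.10 without Control 3 and was between that and 0.17 with other libraries left out. The cause of these shifts was not tested. With the replicate number as a block, 112 genes passed in all, 2 of the other junction genes and 0 of the denervation-response genes, where Myog had an adjusted p of 0.131. Deviations of same-numbered libraries correlated at -0.03, 0.01, -0.08 and 0.13, and 1 of the 4 Control libraries correlated best with its own number, so the samples share only a number. Scaling alternatives moved the median of all genes to between -0.033 and 0.013. Members under about 4 CPM (Chrnd, Ncam1) and Chrng are those that depth limits most.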
